A study of Mus musculus with 3 samples.

Results

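The 10 genes described here encode transcription factors that specify blood: Gata1, Gata2, Klf1, Tal1, Runx1, Gfi1b, Nfe2, Lmo2, Spi1 and Myb. They were chosen by symbol, and each matched 1 row of a matrix of 51923 genes and 14777 single cells. The cells came from C57BL/6 mouse embryos that all carried Mesp1-Cre, a recombinase driven by the Mesp1 gene of early mesoderm, and Ai9, a reporter that turns tdTomato on in the recombined cells and their descendants. Controls were Wls fl/+, so that their Cre lineage kept 1 intact copy of Wls, and mutants were Wls fl/fl. Wls is the carrier protein that cells need to secrete Wnt ligands. Embryos were dissociated, tagged with MULTI-seq barcodes, which mark the cells of each sample before pooling, sorted for tdTomato, and run on 10x Chromium v3. The labels gave 3 control and 3 mutant barcode samples at E8.0, 2 and 1 at E8.5, 6 and 6 at E9.5, and 1 control at E7.5. Whether a barcode sample held 1 embryo is not stated, so the p-values below measure the spread between barcode samples.

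The blood cells of these stages are mostly primitive erythroid cells, the large nucleated red cells of the yolk sac, which arise from mesoderm beside endothelium. Gata1 and Klf1 switch on globin and other red cell genes, while Tal1 and Lmo2 sit in complexes with GATA factors and are also used by endothelium. Gata2, Runx1, Myb and Spi1 are better known from blood progenitors, from haemogenic endothelium, the endothelium that buds off blood cells, and from myeloid cells.

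Cells were divided by 2 rules that use none of the 10 genes. A cell was called globin-positive when 8 globin genes supplied at least 1% of its UMIs (unique molecular identifiers, each counting 1 captured transcript), which took 2439 cells or 16.5%. A cell was called Cdh5-positive, for the endothelial cadherin, when it had at least 2 Cdh5 UMIs and was not globin-positive, which took 316 cells or 2.14%. The other 12022 cells formed the rest. Against markers outside the rules, the summed level of 14 red cell membrane and surface genes was 987 to 2934 CPM (UMIs scaled to a total of 1e6) in the globin-positive cells of a barcode sample and 50.3 to 112 CPM in its Cdh5-positive cells. That of 12 endothelial genes was 25.0 to 183 CPM in globin-positive and 3984 to 5172 CPM in Cdh5-positive cells. No doublet caller was run, so doublets may remain in both classes. The barcode samples held 134457 to 61307782 UMIs in 6 to 2508 cells, and cells had a median of 21739 UMIs. In run 3, which held the E7.5 sample and 4 of the E9.5 samples, the median was 11866 UMIs. Cells outside both classes carried more globin RNA there, with sample medians of 0.553% to 0.633% of UMIs against 0.125% to 0.198% in runs 1 and 2. Wls itself stood at 35.9 to 65.4 CPM in the controls from E8.0 on and at 3.72 to 14.2 CPM in the mutants. The E7.5 control, with 28 cells, had 14.1 CPM, just inside the range of the mutants. Which part of Wls the fl allele removes is not given in the sources used here.

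The 10 factors split by the cells that carried their transcripts. Klf1, an activator of adult and embryonic globin genes, had 16255 UMIs, of which 96.3% lay in globin-positive cells. Gata1, the central erythroid and megakaryocyte factor, had 91.2% of 7289 UMIs there, and Gfi1b, a repressor required for red cells and platelets, had 90.2% of 3762. Nfe2, the large subunit of a globin and platelet gene activator, had 81.6% of 3834 UMIs there, and Tal1 had 73.7% of 11038. At the other end stood Gata2 and Spi1. Gata2 had 8.98% of 980 UMIs in globin-positive cells and 24.5% in the few Cdh5-positive cells. Spi1, the myeloid factor PU.1, had 3.33% of 330 UMIs in globin-positive and 26.7% in Cdh5-positive cells. Runx1 (53.6% of 2376 UMIs in globin-positive cells), Lmo2 (48.2% of 17375) and Myb (20.9% of 852) lay between these ends. Of the UMIs of all genes, 6.61e+07 of 3.32e+08 lay in globin-positive cells, a share near that of Myb, and 8.09e+06 in Cdh5-positive cells. Most UMIs of Gata2 (66.5%), Spi1 (70.0%) and Myb (73.6%) lay in cells of neither class.

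**Figure D1:**
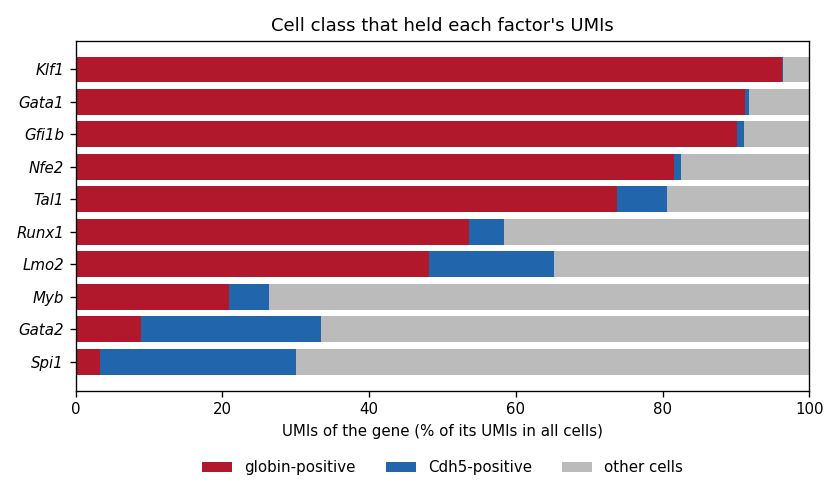
The share of each factor's UMIs, in percent of its UMIs in all cells (horizontal axis), that lay in globin-positive, Cdh5-positive and other cells (stacked bars, 1 bar per gene). The globin-positive part shrinks from 96.3% for Klf1 to 3.33% for Spi1.

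As levels, Klf1 was at 237 CPM over all globin-positive cells, 2.35 CPM over Cdh5-positive cells and 2.25 CPM over the rest. Gata1 stood at 101, 5.44 and 2.32 CPM in the same order. Tal1 and Lmo2 were high in both classes, Tal1 at 123 and 94.6 CPM and Lmo2 at 127 and 365 CPM, against 8.29 and 23.5 CPM in the rest. With every cell thinned to 5000 UMIs, 63.4% of globin-positive cells held a Klf1 UMI, against 1.08% of Cdh5-positive and 1.13% of other cells. Without thinning these shares were 89.4%, 4.43% and 4.12%, at median depths of 27083, 23860 and 20990 UMIs. The Klf1 share in Cdh5-positive cells was thus at the level of the other cells. For Gata2 the thinned shares were 0.663%, 13.7% and 1.13%, so that its detection in globin-positive cells was below that in the rest. With globin UMIs left out, Gata2 was at 1.90 CPM in globin-positive and 2.54 CPM in other cells. Group means went the other way only in E9.5 mutants (2.83 and 2.49 CPM) and the E8.5 mutant (2.38 and 1.21 CPM).

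The transcripts of the factors also occurred in the same cells. Of the 1497 globin-positive cells with at least 2 Gata1 UMIs, 94.1% had at least 2 of Klf1 and 83.5% at least 2 of Tal1. Of the 271 with at least 2 Runx1 UMIs, 87.1% also had at least 2 of Gata1. Over all 2439 globin-positive cells, 1981 had at least 2 UMIs of Klf1, 1680 of Tal1 and 1497 of Gata1, so that these shares start from a high level. Of the 153 Cdh5-positive cells with at least 2 Tal1 UMIs 93.5% had at least 2 of Lmo2, as did 255 of all 316. Only 10 globin-positive cells had at least 2 Gata2 UMIs.

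Sequence upstream of the start site was examined for the GATA letters that GATA factors bind. RefSeq start sites on GRCm38.p6 were given for 7 of the 10 genes, with 10 start sites in all. The letters searched were AGATAA (the form with A on both sides), TGATAA (with T in front), AGATAG (with G at the end) and lastly TGATAG, on both strands, in the 250 bases before each start. They were found for 3 genes, at 1 start site each, against 26.5% of 32851 such windows over all genes. The windows of these 3 genes are printed below to show where the letters lie, 5′ to 3′ on the gene's strand. The matched letters or their complement are in capitals, and bases inside annotated exons are left out.
Klf1, chr8:84901732-84901927 (plus strand, GRCm38.p6): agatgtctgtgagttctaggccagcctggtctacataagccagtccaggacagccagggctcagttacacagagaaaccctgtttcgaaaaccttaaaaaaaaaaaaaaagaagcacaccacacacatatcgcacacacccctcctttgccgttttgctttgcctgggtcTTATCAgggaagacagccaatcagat
Tal1, chr4:115056176-115056425 (plus strand, GRCm38.p6): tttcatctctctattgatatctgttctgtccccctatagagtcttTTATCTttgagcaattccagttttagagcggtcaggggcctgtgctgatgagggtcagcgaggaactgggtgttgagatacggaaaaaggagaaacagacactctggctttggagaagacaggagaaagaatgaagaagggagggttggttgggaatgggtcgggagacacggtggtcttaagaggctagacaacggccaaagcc
Gfi1b, chr2:28621983-28622232 (minus strand, GRCm38.p6): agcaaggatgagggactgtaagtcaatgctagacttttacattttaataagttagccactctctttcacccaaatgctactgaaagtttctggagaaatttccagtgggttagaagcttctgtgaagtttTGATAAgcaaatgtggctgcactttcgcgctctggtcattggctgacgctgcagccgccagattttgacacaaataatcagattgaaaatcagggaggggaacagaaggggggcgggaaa
The match began 80 bases before the RefSeq start in Klf1, 205 bases before it in Tal1 and 120 bases before it in Gfi1b. No window of these genes held CCACACCC or CCACGCCC, forms of the CACC box that KLF factors bind, which 7.72% of all windows held. Other forms of the box were not searched. The ETS letters AGGAAG were in the windows of 2 genes, Gata1 and Runx1, and in 29.5% of all windows. A match is a description of the letters and was not tested for binding.

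The direct comparison of globin-positive with Cdh5-positive cells used the 6 barcode samples that had at least 20 of each, with both sums from the same sample paired. Of all genes tested, 58% differed at an adjusted p under 0.05 (edgeR quasi-likelihood test, Benjamini-Hochberg adjustment over all genes), 27.2% higher and 30.7% lower in globin-positive cells. Of the 10 factors 8 could be tested, 6 were higher and 2 lower, and the same calls were made without each sample in turn. Klf1, Gata1, Nfe2, Gfi1b and Runx1 had 8, 6, 5, 2 and 1 UMIs in the Cdh5-positive cells of these samples. They passed the filter on low counts through the globin-positive sums, where they were high, so their calls are a description. Pooled over these samples, Klf1 had 8838 UMIs in 1393 globin-positive cells and 8 in 168 Cdh5-positive cells, 234 against 2.00 CPM. That is a ratio of 117, with a 95% counting interval of 59.3 to 271. Gata1 had 3436 UMIs against 6, a ratio of 60.6 (27.8 to 165). Gfi1b, with 2 UMIs in Cdh5-positive cells, had a ratio of 95.8 (26.5 to 792), and Runx1, with 1 UMI there, of 47.8 (8.54 to 1893). Nfe2 had a ratio of 35.8 (15.3 to 110). These intervals cover counting error only.

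Tal1, with 4379 UMIs against 267, had a smaller pooled ratio than those 5 genes, 1.74 (1.53 to 1.97), while that of Lmo2 was 0.246 (0.231 to 0.262) and that of Gata2 0.0356 (0.0233 to 0.0533). In the fit, whose TMM scaling differs from CPM, Tal1 was higher in globin-positive cells by 1.92 on the log2 scale (SE 0.23, edgeR adjusted p = 5.91e-06). Gata2 was lower by 3.73 on the log2 scale (−3.73, SE 0.32, edgeR adjusted p = 1.86e-07), and Lmo2 by 1.05 (−1.05, SE 0.14, edgeR adjusted p = 1.36e-05). Partners in one complex, Tal1 and Lmo2, thus differed in opposite directions. With a globin share of at least 0.3%, a limit below the run 3 medians of cells outside both classes given above, the Tal1 call was lost (0.76, edgeR adjusted p = 0.136). Without TMM factors, where the median of all genes was −0.85 against −0.051 with them, calls that were higher made up 9.30% of all calls instead of 47.0%, and the 8 calls kept their directions. With barcode samples of at least 10 cells in each class, an alternative chosen after seeing the data with 70.9% of all genes called, 35% higher and 35.8% lower, the differences were smaller. Runx1 was higher by 1.65 (SE 0.41) instead of 6.45, Gfi1b by 4.17 instead of 7.16, Gata1 by 4.88 instead of 6.75 and Nfe2 by 3.96 instead of 5.93. In this order, their values at 20 cells rest on 1, 2, 6 and 5 UMIs in Cdh5-positive cells and are a description. The 6 samples at 20 cells held no E8.0 control. Spi1 and Myb could be tested only at 10 cells. Myb was not called (−0.0089, SE 0.40, edgeR adjusted p = 0.986), and Spi1 was lower in globin-positive cells (−4.29). Spi1 had 11 UMIs in all globin-positive cells and 88 in all Cdh5-positive cells. It thus passed the filter on low counts through the Cdh5-positive sums, where it was high, and its call is a description. At 20 cells all 14 red cell membrane genes and all 12 haem and iron genes were higher, among them Slc25a37, a mitochondrial iron carrier (6.12). All 12 endothelial genes were lower, with the smallest adjusted p for Egfl7 (−3.55).

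Among globin-positive cells, Runx1, Lmo2 and Myb fell between E8.0 and E9.5. Runx1 was at 64.7, 37.8 and 70.0 CPM in the E8.0 controls Bar24, Bar26 and Bar29, and at 64.4 and 37.9 CPM in the mutants Bar25 and Bar27. At E9.5 the 10 samples with at least 20 such cells had 5.02 to 14.9 CPM, so the stages did not overlap. Runx1 fell by 1.69 on the log2 scale (SE 0.16, edgeR adjusted p = 1.11e-06). Lmo2 was at 375, 200 and 413 CPM in those controls and at 267 and 206 CPM in those mutants, against 59.5 to 159 CPM at E9.5. It fell by 1.12 on the log2 scale (SE 0.19, edgeR adjusted p = 0.000246). Myb, a progenitor factor, went from 3.77 to 19.5 CPM at E8.0 to 0 to 2.94 CPM at E9.5, also without overlap, and fell by 3.09 on the log2 scale (SE 0.46, edgeR adjusted p = 8.69e-05). At E9.5 it had 0 to 4 UMIs in the cells over 20% globin of each sample with at least 20 of them. It thus passed the filter on low counts through E8.0 samples, where it was high, and its call is a description.

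These 3 were the factors that fell, of 9 tested; of all genes 27.1% were called, 12.4% lower and 14.7% higher. Run 1 alone, which held all of E8.0 and 5 of the E9.5 samples, gave −1.56 for Runx1, −1.06 for Lmo2 and −3.06 for Myb, all called. For Myb this call is again a description, for the reason given above. The E8.5 samples sat near E9.5, with Runx1 at 8.49 CPM in the control Bar3 and 13.4 CPM in the mutant Bar1. So did the 20 globin-positive cells of the E7.5 control Bar18, which was in run 3 and not in the stage test. They had Runx1 at 8.33, Lmo2 at 58.3 and Myb at 2.78 CPM. Among the other blood regulators, 3 of the 17 tested fell and 3 rose. Kit, the receptor of stem cell factor, was among those that fell (−3.33, SE 0.44, edgeR adjusted p = 3.02e-05). Over all globin-positive cells Kit was at 2.69 CPM, as low as Myb, with a UMI in 5.86% of them. Its call is therefore a description too.

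Among the erythroid factors, 2 were called higher and none lower, and what they did depended on the scaling. At E9.5 1232 of these cells had over 20% globin, and 7 of 8 globin genes, 10 of 12 haem and iron genes and 13 of 14 red cell membrane genes rose. So did genes of other cells. Of 6 megakaryocyte genes tested in these cells 5 rose and 1 fell, with a median of 2.34 over the 6 and values of 3.69 for Gp5 and 4.73 for Pf4. Of endothelial genes 3 of 9 rose, among them Emcn (4.77), of cardiac muscle genes 2 of 8, among them Actc1 (2.08), and the 1 macrophage or myeloid gene (Fcer1g, 3.21) and 1 neural gene (Nes, 1.63) tested rose too. Over all stages, Pf4 had a UMI in 6.40% of globin-positive cells, Gp5 in 1.39%, Emcn in 0.943% and Fcer1g in 0.902%. The values of these 4 genes thus rest on a small part of the cells and are a description. Of 3 endocardial genes 1 fell, as did 1 of 3 endoderm genes, and none rose. The part of all these in the results was not tested. Gata1 was at 145 to 148 CPM in the E8.0 controls and 131 CPM in both mutants, against 70.3 to 104 CPM at E9.5. As CPM with globin UMIs left out, the same samples gave 140 to 163 at E8.0 and 116 to 153 at E9.5, which overlap. In the fit with TMM scaling, which sets the bulk of genes to no change, Gata1 differed by −0.07 (SE 0.08, edgeR adjusted p = 0.589). Tal1 rose by 0.33 (SE 0.09, edgeR adjusted p = 0.0148) and Nfe2 by 0.61 (SE 0.12, edgeR adjusted p = 0.00119). Klf1 differed by 0.33 (edgeR adjusted p = 0.103) and Gfi1b by 0.18 (edgeR adjusted p = 0.435).

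Without TMM factors, an alternative chosen after seeing the data, the median of all genes shifted to −0.58 and calls that were higher made up 6.13% of all calls instead of 54.3%. There Tal1 stood at −0.26 (edgeR adjusted p = 0.0557), Nfe2 at 0.02, Klf1 at −0.24 and Gfi1b at −0.41 (edgeR adjusted p = 0.0436). Gata1 was then called lower at −0.66 (edgeR adjusted p = 0.000146). Runx1, Lmo2 and Myb kept their direction and calls, at −2.30, −1.73 and −3.71. Tal1 also lost its call without the E8.0 mutant Bar25 (0.28, edgeR adjusted p = 0.0616), and Klf1 was called without the E8.0 mutant Bar27 (0.45, edgeR adjusted p = 0.0382). With globin UMIs left out, Nfe2 was at 47.4 to 60.3 CPM at E8.0 and 61.2 to 100.2 CPM at E9.5.

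**Figure D2:**
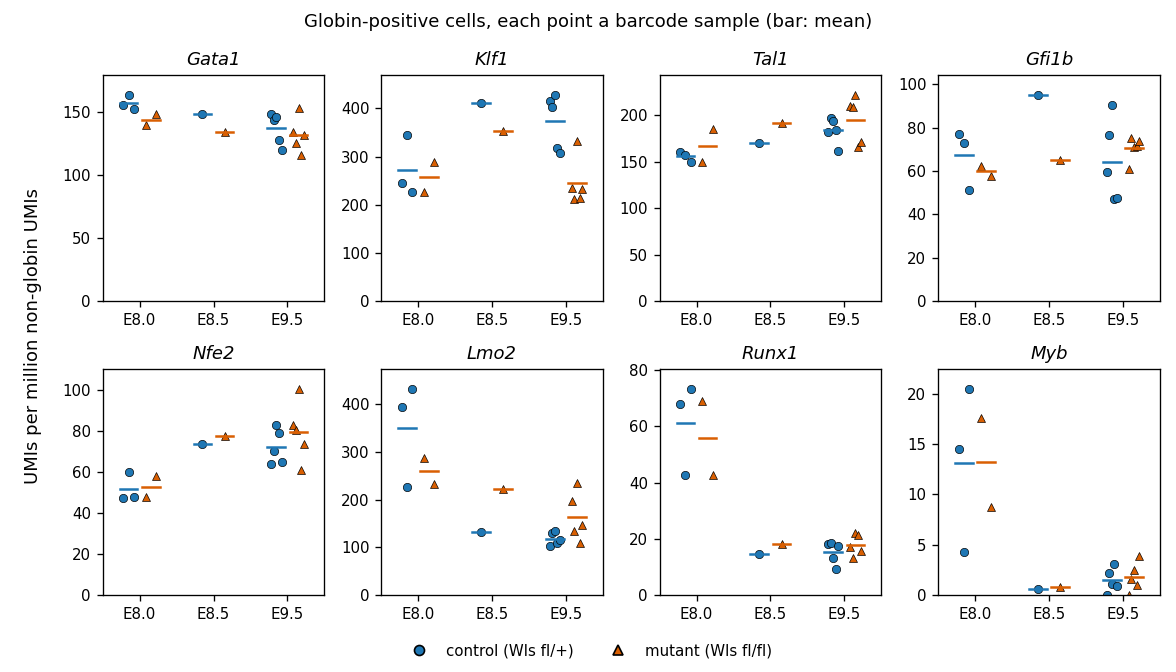
Levels of 8 factors in globin-positive cells (CPM with globin UMIs left out, vertical axes) by stage, for barcode samples with at least 20 such cells. Points are samples, circles controls and triangles mutants, and bars are means; Runx1 and Myb at E8.0 lie above all E9.5 points, while Gata1 overlaps.

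Runx1, Lmo2 and Myb were also lower in bins of cells that held more globin. In bins of 1 to 5%, 5 to 20% and over 20% globin, with 263, 447 and 1729 cells, Runx1 went from 83.5 to 36.3 to 8.12 CPM. Lmo2 went from 344 to 195 to 85.9 CPM, and Myb from 17.7 to 5.14 to 0.522 CPM. These levels count globin UMIs in the total, which lowers every level in the bins of more globin. With globin UMIs left out, Runx1 was at 35.0 to 64.9 CPM in samples of the middle bin and 9.60 to 20.2 CPM in the highest. Myb was at 3.20 to 13.8 and 0 to 2.04 CPM, and Lmo2 at 205 to 340 and 107 to 271 CPM, which overlap. As CPM with globin UMIs left out, Gata1 stayed between 137 and 146 over the bins, Klf1 went from 168 to 293 to 384 and Nfe2 from 42.8 to 53.7 to 77.2. Within E8.0 alone, Runx1 was at 80.7 CPM in the lowest and 39.7 CPM in the middle bin, and Klf1 at 211 and 278 CPM. The bins are no test, because globin share and stage move together: no E8.0 sample had 20 cells over 20%, and 128 of the 263 lowest cells were from E8.0.

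The lowest bin differed in its factors between stages. Its 118 cells from E9.5 had 16.8 CPM of Klf1 and 49.4 CPM of Gata1, against 211 and 158 CPM in the 128 cells from E8.0. Of those 118 cells 103 came from run 3, where cells of all kinds carried more globin RNA, as given above. In Bar9 the 68 such cells had Klf1 at 2.04 CPM, and with globin UMIs left out Runx1 at 41.3, Lmo2 at 39.2 and Myb at 2.06 CPM. Its Lmo2 was thus below every sample of the higher bins, against the order given above.

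**Figure D3:**
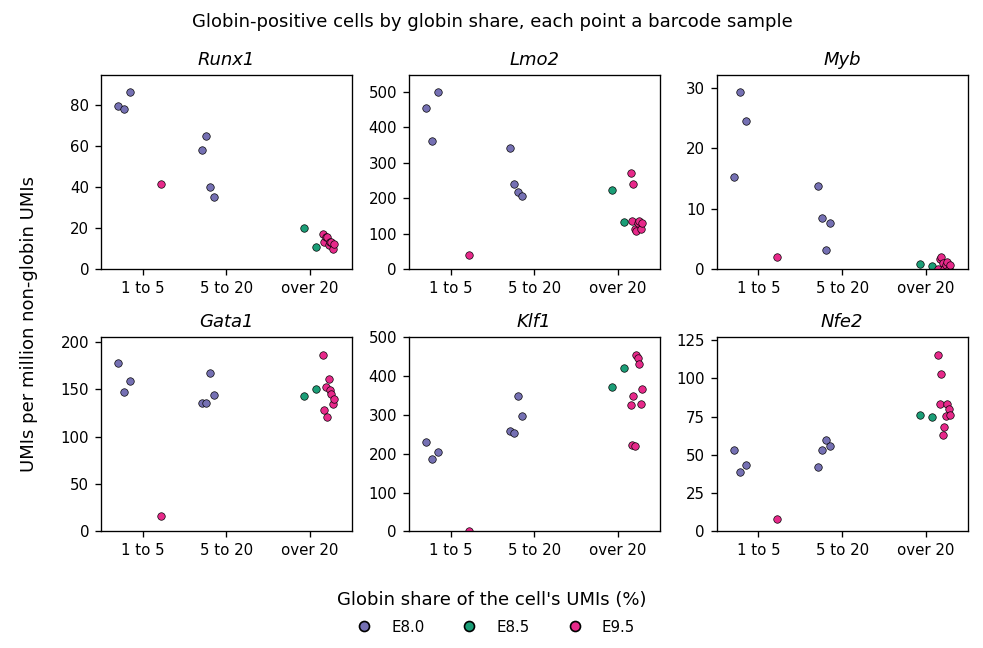
Levels of 6 factors (CPM with globin UMIs left out, vertical axes) in globin-positive cells binned by globin share in percent (horizontal axes), for barcode samples with at least 20 cells in a bin, coloured by stage. Among E8.0 samples Runx1, Lmo2 and Myb are highest in the lowest bin, and the single E9.5 point in that bin, Bar9, lies below the E8.0 points of the bin for all 6 factors.

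Between genotypes, the level within globin-positive cells was called different for none of the 9 factors tested (edgeR quasi-likelihood test), where 0.00837% of all genes were called. At an unadjusted p under 0.05, which 7.58% of all genes passed, there was 1, Klf1, at −0.39 (SE 0.12, unadjusted p = 0.00325, edgeR adjusted p = 0.467). DESeq2 called 0 of them. At E9.5 Klf1 was at 291 and 285 CPM in the run 1 controls Bar22 and Bar23, and at 132, 226 and 136 CPM in the run 1 mutants Bar19, Bar20 and Bar21. In run 3 the controls Bar7 and Bar9 had 174 and 185 CPM, and the mutants Bar8 and Bar10 had 176 and 154 CPM. The groups did not overlap in run 1 and overlapped in run 3. Sex was uneven in run 1, with Xist at 138 to 146 CPM in Bar22, Bar23 and Bar20. In Bar19 and Bar21 Y-linked genes were at 151 and 136 CPM together. The part of sex in Klf1 was not tested. At E8.0 they overlapped too, with 233, 305 and 216 CPM in controls and 211 and 255 CPM in mutants. At E8.5 the mutant Bar1 had 258 CPM and the control Bar3 239 CPM. Without a filter on low counts, where 0.494% of all genes were called, Klf1 was called (−0.45, edgeR adjusted p = 0.000795). With a globin share of at least 0.3%, where 3.95% were, both Klf1 (−0.68, edgeR adjusted p = 0.0149) and Gata1 (−0.43, edgeR adjusted p = 0.0453) were called. That limit lies below the run 3 medians of 0.553% to 0.633% in cells outside both classes, so in run 3 it takes in cells of any kind. The 1% limit also took in cells low in Klf1 there. In Bar9, 68 of 356 globin-positive cells had 1 to 5% globin, with Klf1 at 2.04 CPM. Over all cells outside both classes Klf1 was at 2.25 CPM. The remaining 8 factors lay between −0.10 (Gata1) and 0.51 (Gata2), and the 95% interval of the Gata1 difference was −0.24 to 0.04.

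In sums over all cells, fewer cells of a type and less RNA per cell cannot be told apart. Over all stages Klf1 was the only factor called of 10, lower in mutants by 0.81 on the log2 scale (−0.81, SE 0.25, edgeR adjusted p = 0.0437), where 5.77% of all genes were called lower and 10.2% in either direction. Calls that were higher made up 43.7% of all calls, and 77.02% without TMM factors, where Klf1 stood at −0.74 (edgeR adjusted p = 0.0569). Without the globin-positive cells it stood at −0.44 (edgeR adjusted p = 0.268), and without each sample in turn it lost its call in 15 of 22 fits, over which the estimate ranged from −0.91 to −0.61. Without the E8.0 mutant Bar25 the 1 factor called was Myb (−0.76, edgeR adjusted p = 0.0408), while Klf1 was at −0.82 (edgeR adjusted p = 0.0599). Within runs it stood at −0.78, −0.43 and −1.28 for runs 1, 2 and 3, none of them called. All 10 factors had negative estimates, from −0.00 for Gata2 to −1.15 for Spi1, with a median of −0.46 against 0.02 over all genes. With E8.0 left out, 6 of them turned positive.

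For 8 of the 10 factors the estimate was lower at E8.0 than at E9.5, the exceptions being Spi1 and Myb. Klf1 was at 69.1, 106 and 22.8 CPM in the E8.0 controls and at 35.3, 38.3 and 10.9 CPM in the mutants, and Gata1 at 48.1, 52.4 and 16.1 CPM against 22.8, 21.0 and 5.51 CPM. Bar29 was the low control and Bar28 the lowest sample in both, and the groups overlapped. Globin-positive cells made up 26.7%, 30.3% and 8.45% of the same controls and 13.0%, 11.1% and 3.21% of the mutants, which among controls is also the order of both levels. Among mutants Bar25 had the larger share and Bar27 more Klf1. The part of the cell shares in the levels was not tested. The estimates at E8.0 were −1.32 for Klf1, −1.34 for Gata1, −1.41 for Gfi1b and −1.23 for Runx1, against −0.11 for Gata2. Of the 10 factors 0 were called by edgeR (0.0244% of all genes were), 3 were under an unadjusted p of 0.05, as were 9.84% of all genes, and DESeq2 called 0. Genotype could not be told apart from sex at E8.0: all 3 mutants had Xist at 4.67 to 7.60 CPM and 4 Y-linked genes at 127 to 138 CPM together. The controls Bar24 and Bar26 had Xist at 105 and 126 CPM and Y-linked genes at 9.98 and 8.55 CPM. The control Bar29 had both, Xist at 66.1 CPM and Y-linked genes at 70.7 CPM. Gata1 is X-linked.

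At E9.5 Klf1 was at 38.6, 37.6, 106, 104, 87.5 and 59.5 CPM in the controls and at 34.5, 36.4, 32.9, 69.0, 33.6 and 35.5 CPM in the mutants, which overlap; the 104 CPM was from 6 cells of Bar6. Its difference was −0.53 (SE 0.18, edgeR adjusted p = 0.0768), and 0 of 10 factors were called (10.3% of all genes were). By unadjusted p under 0.05 there was 1, against 26.3% of all genes, and DESeq2 called 0. Without a filter on low counts, where 7.62% of all genes were called, Klf1 (−0.58, edgeR adjusted p = 8.78e-05) and Spi1 (−1.60, edgeR adjusted p = 0.000634) were called lower. Klf1 stood at −0.095 in run 1 alone and −0.92 in runs 2 and 3, neither called. Gata1, Tal1, Runx1, Gfi1b, Nfe2 and Lmo2 lay above 0 in run 1 and below 0 in runs 2 and 3, a difference that was not tested. In run 1 alone, with 7.4% of all genes called, Gata1 (0.57, edgeR adjusted p = 0.0455) and Nfe2 (0.73, edgeR adjusted p = 0.0393) were called higher in mutants, where globin-positive cells made up 8.98% and 8.90% of the controls and 21.6%, 11.7% and 18.6% of the mutants. In runs 2 and 3 Gata1 stood at −0.46 and Nfe2 at −0.37, not called. Globin-positive shares there were 28.8%, 43.9% and 25.9% in controls of at least 20 cells and 31.6%, 17.3% and 18.9% in mutants. The test of E9.5 against E8.0 in the genotype effect called 0 of 10 (0.464% of all genes); the furthest was Gfi1b at 1.85 (SE 0.64, edgeR adjusted p = 0.247). 5 were under an unadjusted p of 0.05, as were 11.5% of all genes, and DESeq2 called 0. Without a filter on low counts it called 5, Gata1, Runx1, Gfi1b, Nfe2 and Lmo2, where 1.92% of all genes were called.

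**Figure D4:**
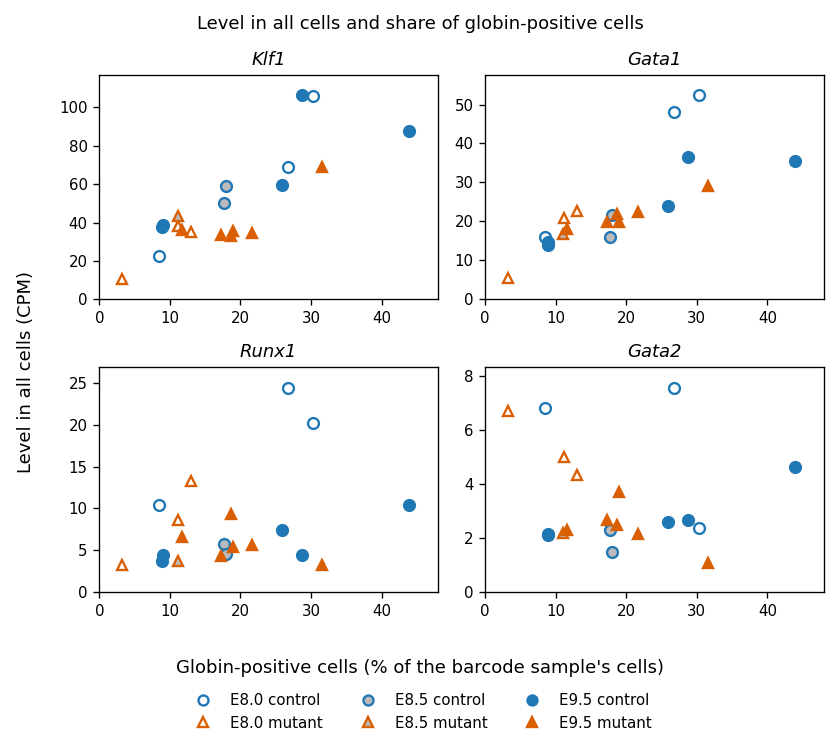
Level in all cells (CPM, vertical axes) against the share of globin-positive cells in percent (horizontal axes) for 4 factors, 1 point per barcode sample of at least 20 cells at E8.0 to E9.5. Klf1 and Gata1 are lowest, at 10.9 and 5.51 CPM, in Bar28, which has the lowest share of 3.21%, while Gata2 is at 6.69 CPM there.

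The share of globin-positive cells itself differed by −6.67 percentage points between mutants and controls (two-sided exact permutation test within stages over 20 samples, p = 0.143). In run 3 these shares also count cells low in Klf1, such as 68 of the 356 in Bar9. At E8.0 it was 21.8% ± 11.7 (SD, n = 3) in controls and 9.12% ± 5.20 (SD, n = 3) in mutants. At E9.5 it was 23.3% ± 14.8 (SD, n = 5) and 20.0% ± 6.58 (SD, n = 6). Among the lists given beside the factors, 0 of 8 globin genes, 1 of 12 haem and iron genes (Slc25a38, −0.30, edgeR adjusted p = 0.0188) and 0 of 14 red cell membrane genes were lower over all cells and stages. In cardiac muscle genes 1 of 8 was higher, Actn2 (0.94, edgeR adjusted p = 0.0207).

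Between stages, sums over all cells called 4 of 10 factors lower at E9.5 than at E8.0 and none higher (10% of all genes were lower, 22.5% in either direction). They were Gata2 (−1.004, SE 0.22, edgeR adjusted p = 0.00268), Runx1 (−0.97, SE 0.30, edgeR adjusted p = 0.0228), Lmo2 (−0.97, SE 0.21, edgeR adjusted p = 0.00191) and Myb (−1.21, SE 0.27, edgeR adjusted p = 0.00303). Runx1 was at 24.5, 20.3 and 10.4 CPM in E8.0 controls, 13.3, 8.59 and 3.28 CPM in E8.0 mutants and 3.23 to 10.5 CPM at E9.5. It lost its call without Bar24 (−0.76, edgeR adjusted p = 0.0807), Bar26 (−0.85, edgeR adjusted p = 0.0547) or Bar25 (−0.90, edgeR adjusted p = 0.0665), and in run 1 alone (−1.09, edgeR adjusted p = 0.0987). All E8.0 samples were in run 1, and run was not a term here. With run as a term 5 factors were called, where 21.5% of all genes were, the fifth being Tal1 (−0.67, edgeR adjusted p = 0.0374), which run 1 alone also called (−0.70, edgeR adjusted p = 0.0397). Calls that were higher made up 55.4% of all calls with TMM factors and 33.8% without them. Gata2 was at 2.38 to 7.55 CPM at E8.0 and 1.08 to 4.61 CPM at E9.5 in samples of at least 20 cells. Within globin-positive cells Gata2 was not called (−0.41, edgeR adjusted p = 0.574), and 88 of its 980 UMIs lay there.

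Only 7 barcode samples held at least 20 Cdh5-positive cells, and at E8.0 these were the mutants Bar27 and Bar28. The only E9.5 mutant was Bar19, so that with genotype as a term the stage contrast set 2 samples against 1, assumed to vary like the others. Of 3 factors testable there, Tal1 was called, at −2.55 (SE 0.50, edgeR adjusted p = 0.0231), where 0.277% of all genes were called lower and 1.38% in either direction. It was at 113 and 169 CPM in Bar27 and Bar28 and at 23.5 CPM in Bar19. The call was lost without Bar28 (−2.28, edgeR adjusted p = 0.115). With at least 10 such cells, chosen after seeing the data, 15 samples entered and 6 of 7 tested factors were called lower, where 4.02% of all genes were lower and 10.6% called in all. No E9.5 sample had a Cdh5-positive cell with at least 2 UMIs of Runx1, Gata1, Nfe2 or Myb, so these 4 passed the filter on low counts through samples where they were high, and the count of 6 is a description. Tal1 was then at 109 to 169 CPM at E8.0 and 23.5 to 109 CPM at E9.5, a difference of −1.01 (SE 0.26, edgeR adjusted p = 0.0139). Lmo2, at 284 to 415 CPM and 246 to 473 CPM, was not called (−0.19, SE 0.13, edgeR adjusted p = 0.384).

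Runx1 in Cdh5-positive cells was at 53.4, 127 and 25.2 CPM in the E8.0 controls Bar24, Bar26 and Bar29, and at 45.6, 0 and 12.4 CPM in the mutants Bar25, Bar27 and Bar28. It was at 0 in both E8.5 samples and at 0, 0, 3.24 and 0 CPM in the E9.5 controls and 2.35, 12.6 and 0 CPM in the E9.5 mutants. The stage difference was −4.49 (SE 0.95, edgeR adjusted p = 0.00391). Gata1 (−2.95), Gata2 (−0.87), Nfe2 (−3.34) and Myb (−3.66) were the others called. Runx1, Tal1 and Myb were called without each of the 15 samples in turn, Gata1 in 11 of those fits, Nfe2 in 8 of the 13 that tested it and Gata2 in 3. Apart from Tal1 and Gata2, these factors passed the filter through samples where they were high, as given above, so their counts are a description. Gfi1b and Spi1 entered only 8 and 9 of those fits and were called lower in each. No E9.5 sample had a Cdh5-positive cell with at least 2 UMIs of either, so both passed the filter through samples where they were high. The number called dropped to 3 if either Bar24 (E8.0 control) or Bar23 (E9.5 control) was left out, and was 8 if Bar4 (E9.5 control) was. The share of all genes called in those fits is not given here, so these numbers are a description.

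**Figure D5:**
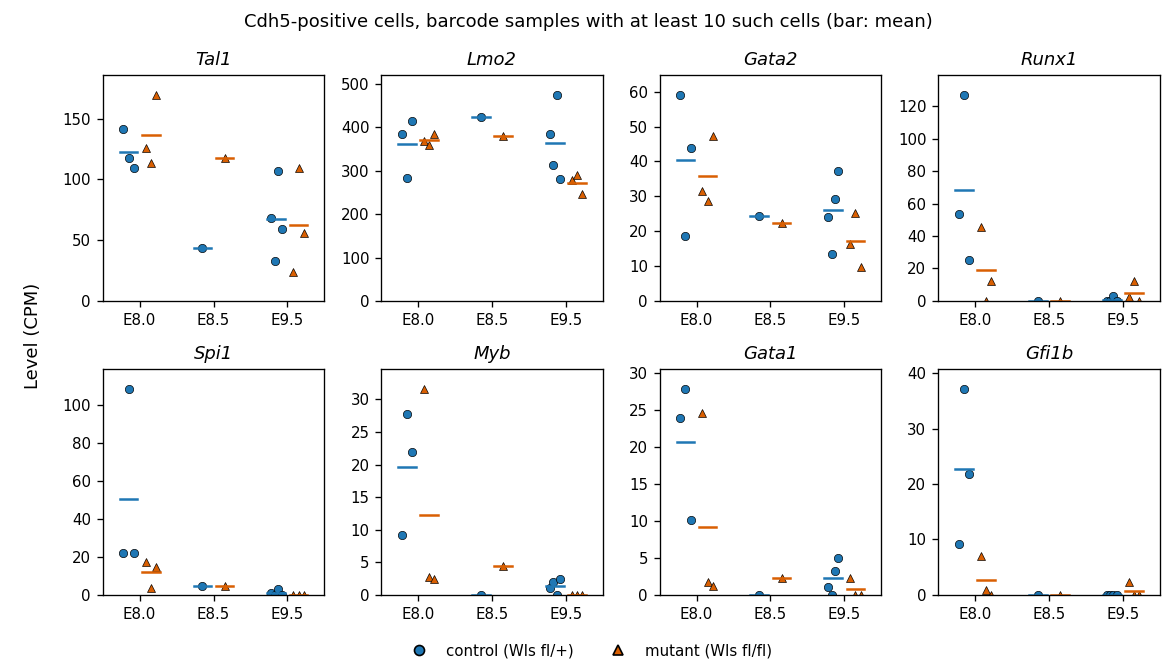
Levels of 8 factors (CPM, vertical axes) in Cdh5-positive cells by stage, for barcode samples with at least 10 such cells. Points are samples, circles controls and triangles mutants, and bars are means; Lmo2 overlaps between stages, and Runx1, Spi1, Gata1 and Gfi1b are highest in E8.0 samples.

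At least 2 Runx1 UMIs were found in 19 Cdh5-positive cells, all from E8.0. They made up 5 of 15, 5 of 11 and 3 of 19 such cells in the controls Bar24, Bar26 and Bar29, and 4 of 11, 0 of 41 and 2 of 30 in the mutants Bar25, Bar27 and Bar28. In these 19 cells, described and not tested because Runx1 chose them, Spi1 was at 98.4 CPM, Myb at 56.0 CPM, Gata1 at 54.5 CPM and Gfi1b at 45.4 CPM. In the 284 Cdh5-positive cells without a Runx1 UMI, 102 of them from E8.0, the same genes were at 3.25, 1.41, 1.13 and 0.566 CPM. Tal1 (121 and 90.9 CPM), Lmo2 (397 and 361 CPM) and Gata2 (40.9 and 28.4 CPM) were nearer to each other. Nfe2 was at 43.9 and 0.848 CPM and Klf1 at 12.1 and 1.56 CPM. Of 10 other genes looked up, Itga2b, a surface integrin of early blood, was at 99.95 and 19.9 CPM and Mpo, a myeloid enzyme, at 7.57 and 3.53 CPM. The blood genes Kit (40.9 and 60.8 CPM), Ptprc (0 and 0.424 CPM) and Gfi1 (0 and 0.141 CPM) did not lie higher in the Runx1 cells. Sox17, an arterial endothelial factor, was at 18.2 and 122 CPM, Etv2 at 109 and 181 CPM, Kdr at 233 and 438 CPM, Cdh5 at 212 and 321 CPM and Pecam1 at 129 and 157 CPM. The 19 cells had a median of 32848 UMIs and the 284 cells one of 23166.

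Genotype calls in Cdh5-positive cells were 0 of 3 factors at 20 cells (1.06% of all genes called) and 0 of 9 at 10 cells (0.168%), by edgeR. At 10 cells 3 were under an unadjusted p of 0.05, as were 10.5% of all genes: Spi1 (−1.94, SE 0.61, edgeR adjusted p = 0.231), Gfi1b (−2.97, SE 1.00, edgeR adjusted p = 0.286) and Runx1 (−1.81, SE 0.84, edgeR adjusted p = 0.462). Only the E8.0 controls had Cdh5-positive cells with at least 2 Gfi1b UMIs. Gfi1b thus passed the filter on low counts through the samples where it was high, and its value is a description. Spi1 was at 22.1, 108 and 21.9 CPM in the E8.0 controls and 17.5, 3.60 and 14.9 CPM in the mutants. These levels rest on few cells. At least 2 Spi1 UMIs were in 3, 4 and 3 Cdh5-positive cells of those controls and 1, 0 and 3 of those mutants. Genotype could not be told apart from sex at this stage, as given above. At 20 cells 1 was under an unadjusted p of 0.05, as were 12.1% of all genes, Tal1 (−1.19, edgeR adjusted p = 0.405), and DESeq2 called 0. That estimate rests on 1 mutant, Bar19, against the E9.5 controls, and at 10 cells it was 0.31 (edgeR adjusted p = 0.692). The share of Cdh5-positive cells differed by 0.187 percentage points (two-sided exact permutation test, p = 0.777).

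At least 2 Spi1 UMIs were found in 38 cells: 15 Cdh5-positive, 22 in neither class and 1 globin-positive. Of the 15 Cdh5-positive cells 14 were from E8.0 and 12 also had at least 2 Runx1 UMIs, so that they largely overlap the Runx1 cells above. Of 10 macrophage or myeloid genes, 7 had UMIs in them, from 5.96 CPM for Csf1r to 51.6 CPM for Laptm5 and 57.6 CPM for Fcer1g, and Ptprc, C1qb and Aif1 had 0. The 22 cells of neither class came from 10 samples, 8 of them from Bar9 and 3 from Bar7. They held Coro1a at 749 CPM, C1qb at 632 CPM, Fcer1g at 630 CPM, Tyrobp at 561 CPM and Csf1r, the macrophage growth factor receptor, at 121 CPM, with Cdh5 at 1.80 CPM. Over all cells of the E9.5 controls, Spi1 was at 18.4 CPM in Bar7 and at most 3.42 CPM in the others.

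Across the 21 barcode samples with at least 20 cells, genes with a mean of at least 5 CPM were ranked by their correlation with each factor. The measure was log2(CPM + 1) in all cells, and genes that went most closely with each factor are named here. For Klf1 they were Cited4 (Pearson r = 0.96) and Asb17 (0.95), and for Gata1 Tspan32 (0.93), Epor (0.92) and Slc38a5 (0.92). For Nfe2 they were Slc39a8, Smim1 and Epor (0.94, 0.94 and 0.93), for Gfi1b Cdc42ep3 and Gypc (0.87 and 0.86), and for Tal1 Frrs1, Slc29a1 and Prkar2b (0.88, 0.82 and 0.81). Epor, the erythropoietin receptor, thus stood in 2 lists. For Gata2 they were Pdgfa, Hbegf and Apela (0.91, 0.91 and 0.87), for Lmo2 Kifc2, Ptpre and Cbfa2t3 (0.94, 0.87 and 0.87), for Runx1 Prkca, Cox17 and Znrf2 (0.81, 0.79 and 0.79), for Myb Ttc27, Nagpa and Gab1 (0.87, 0.87 and 0.86), and for Spi1 Sec11c, Lyn and Ctsc (0.81, 0.67 and 0.66). These are descriptions over samples that share runs and stages and differ in their share of blood cells.

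In the GENCODE annotation of GRCm38 used here, 3 of the 10 genes overlap another gene on the opposite strand. Runx1 (chr16:92601466-92826149) overlaps Gm26626, Lmo2 (chr2:103957986-103981878) overlaps 4931422A03Rik and Myb (chr10:21124935-21160984) overlaps Gm26577. Those partners had 9, 192 and 23 UMIs, small beside the 2376, 17375 and 852 of the factors, and whether the counting used strand is not given in the sources used here.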

How the data were processed

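The deposited matrix holds raw UMI counts per gene and cell, made by the authors with kallisto and bustools 0.46.1 on GRCm38, per the submitters' processing notes, which also name Cell Ranger; filters on cells are not given in the sources used here. Cells were assigned to stage, genotype and MULTI-seq barcode by the authors' deposited per-cell table, whose wildtype and knockout conditions were read as Wls fl/+ and Wls fl/fl. The 10 members and the other gene lists were chosen with earlier results of these data known.

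UMI counts were summed per barcode sample and class. After removal of low genes by filterByExpr and scaling by TMM, edgeR 4.0.16 (R 4.3.3) gave quasi-likelihood tests, Benjamini-Hochberg adjusted over all genes at a threshold of 0.05, with stage and run as terms in genotype tests, run also in the test of the difference between stages, and genotype without run in stage tests. Class tests used samples of at least 20 cells of the class, and the paired comparison had barcode sample as a block. Shares of cells were compared by exact permutation within stages. Levels carry exact Poisson error only. All 10 members were named in every comparison, with at most 2 called genes per list and the 3 genes most alike each member, of which some are not reported here. Doublets were not called, and 23 cell barcodes occurred in more than 1 run and were kept as separate cells. Alternatives were DESeq2 1.42.0, no count filter, other class limits, single runs or stages, and leaving out each sample. The edgeR script was tested on simulated data.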

Additional observations from a re-analysis of the deposited data

Results flagged for a closer look

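Among 40 groups of 4 or more samples, 5 held a sample far from the others, where chance gives about 1 in 20. In the E9.5 control Bar7, of 164 cells, Gata2 was at 4.61 CPM with the nearest other control at 2.68 CPM, and Spi1 was at 18.4 CPM with the nearest at 3.42 CPM. In the E9.5 mutant Bar5, of 57 cells with 31.6% globin-positive, Klf1 was at 69.0 CPM against 36.4 CPM in the nearest mutant, and Gfi1b at 22.6 CPM against 13.6 CPM. In the E9.5 mutant Bar21 Spi1 was at 1.14 CPM, with the nearest at 0.2998 CPM.

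The single E7.5 control stood above every other control for 3 factors. Gata1 was at 66.5 CPM against at most 52.4 CPM, Klf1 at 165 CPM against 106 CPM, and Nfe2 at 24.2 CPM against 23.9 CPM. Of its 28 cells 71.4% were globin-positive.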

How the results depend on the processing

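Leaving out 1 sample at a time gave 0 to 1 factors called for genotype in all cells, 0 at E8.0, 0 at E9.5, 0 for their difference, 3 to 4 for stage in all cells, 0 for genotype and 4 to 6 for stage in globin-positive cells, 0 for genotype and 0 to 1 for stage in Cdh5-positive cells, and 8 in the paired comparison. The shares of all genes called are given above for the full fits and not for each of these fits, so the counts are a description. In these fits the globin-positive share difference was −8.80 to −4.20 points and the Cdh5-positive one −0.0724 to 0.470.

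Factors called for genotype in all cells numbered 0 in run 1, run 2 or run 3 alone, without E9.5, without globin-positive cells, without these and Cdh5-positive cells, and without TMM factors. With the share of all genes called in parentheses, at E9.5 they numbered 2 without a count filter (7.62%) and 2 in run 1 alone (7.4%), and the genotype effect difference 5 without a filter (1.92%). In globin-positive cells genotype called 1 without a filter (0.494%) and 2 at a 0.3% globin share (3.95%), and stage 3 at that share (24.7%). In Cdh5-positive cells stage called 5 at 1 Cdh5 UMI (4.76%) and 6 at 10 cells (10.6%). The Cdh5-positive share difference was −0.474 at E9.5 alone and −0.121 at 1 Cdh5 UMI.

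Direction reversed for genotype in all cells as follows. Gata2 was 0.023 by DESeq2, 0.00403 in run 1, 0.052 in run 2, 0.10 without E8.0 and 0.059 without TMM factors. Tal1 was 0.11 in run 2, 0.13 without E8.0, 0.29 without globin-positive cells and 0.28 without both classes. Without E8.0, Runx1 was 0.11, Gfi1b 0.14, Nfe2 0.14 and Lmo2 0.12, and without both classes Gfi1b was 0.11 and Lmo2 0.021. At E9.5, Spi1 was 0.045 in run 1, and in runs 2 and 3 Gata1 was −0.46, Tal1 −0.46, Runx1 −0.83, Gfi1b −0.068, Nfe2 −0.37 and Lmo2 −0.26. For the genotype effect difference in run 1, Spi1 was 0.74 and Myb 0.048.

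For stage in all cells, Gata1 was 0.013 by DESeq2, Klf1 −0.19, Gfi1b −0.16 and Spi1 −1.43 in run 1, −0.18, −0.14 and −1.42 with a run term, and Spi1 −0.033 without TMM factors. For genotype in globin-positive cells, Runx1 was −0.047 without a filter, −0.00765 without globin genes in the library size, −0.029 in run 1, −0.049 without E9.5 and −0.35 at 0.3%. Gfi1b was 0.00455 in run 1, 0.40 in run 3, 0.050 without E8.0 and 0.017 without TMM factors, and Gata1 was 0.031 in run 3. Without E9.5, Gata2 was −0.084 and Lmo2 −0.11. At 0.3%, Tal1 was −0.23, Nfe2 −0.17, Lmo2 −0.17 and Myb −0.40. For stage in globin-positive cells, Klf1, Tal1 and Gfi1b were −0.23, −0.23 and −0.27 at 0.3% and −0.24, −0.26 and −0.41 without TMM factors, and at 5% Gata1 was 0.067 and Gata2 0.18. For genotype in Cdh5-positive cells, Tal1 was 0.10 and Lmo2 0.11 at 1 Cdh5 UMI, and Tal1 0.31 at 10 cells. The causes were not tested.

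Leaving out 1 sample also reversed directions, with ranges of −0.13 to 0.12 for Gata2 (genotype, all cells) and −0.49 to 0.17 (E8.0). At E9.5 the ranges were −0.10 to 0.27 for Gata1, −0.054 to 0.13 for Gata2, −0.10 to 0.28 for Tal1, −0.019 to 0.49 for Runx1 and −0.043 to 0.24 for Lmo2. For the effect difference they were −0.13 to 0.54 for Gata2 and −0.38 to 0.23 for Myb. For stage in all cells they were −0.27 to 0.17 for Gata1, −0.024 to 0.46 for Gfi1b and −0.77 to 0.38 for Spi1. For genotype they were −0.088 to 0.14 for Runx1, −0.11 to 0.062 for Gfi1b and −0.083 to 0.52 for Myb in globin-positive cells, and −0.53 to 0.28 for Gata2 in Cdh5-positive cells.

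Of 556 values under other settings 469 kept direction and side of the threshold, and of 1187 with 1 sample left out 1116 did. The library sizes without TMM factors and the limit of 10 cells were chosen after seeing the data. Mutants could not be paired with controls because replicate numbers of barcode samples only name them. The comparison of 2 classes, which was paired within samples, called the same number, 8, without the sample block. Not run for lack of samples were genotype in run 2 alone in globin-positive cells and, in Cdh5-positive cells, genotype in run 2 or 3 alone or without E9.5, both comparisons at 3 Cdh5 UMIs and both without Bar19. The 316 Cdh5-positive cells limit the precision there.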

Other observations

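Outside both classes, 62 cells from 13 barcode samples held at least 2 Gata1 UMIs. They held Pf4, a platelet chemokine, at 8876 CPM, with a UMI in 42 of the 62 cells. Itga2b, a platelet integrin, was at 329 CPM, Treml1 at 272 CPM and Gp5, a platelet surface protein, at 230 CPM. Among the factors Runx1 was at 172 CPM, Gfi1b at 110 CPM, Nfe2 at 73.3 CPM and Klf1 at 52.4 CPM in these cells. At E8.0 there were 18 such cells in controls and 7 in mutants, at E8.5 7 in controls, and at E9.5 12 in controls and 18 in mutants. These cells were chosen by Gata1 and the values are a description.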
